A study of Mus musculus with 4 samples.

Results

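The genes described here are 8 T-box transcription factors, *Tbx18*, *Tbx15*, *Tbx1*, *Tbx20*, *Tbx2*, *Tbx3*, *Tbx4* and *Tbx5*, taken by symbol from the 25819 rows of the deposited RNA-Seq table, where each has 1 row. RNA-Seq was made from the whole urogenital sinus (UGS), the embryonic tissue from which the prostate develops, dissected from male mouse embryos. The 4 libraries were, in the order used throughout, wild type at embryonic day E16.5, Tbx18Gfp/Gfp at E16.5, wild type at E18.5 and Tbx18Gfp/Gfp at E18.5. Each was made from RNA pooled from 3 embryos, so there was 1 library per genotype and stage, no replicate check and no test between groups. Tbx18Gfp/Gfp embryos carry a GFP knock-in on both copies of *Tbx18* and are described as null, wild type embryos were their littermates, and all lines were kept on a B6C3-F1 hybrid background. The comparison addresses what changes in the UGS without *Tbx18* before and after the first prostate buds form.

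T-box factors bind DNA through a shared domain, the T-box, and either activate or repress transcription. *Tbx2* and *Tbx3* encode mainly repressors, *Tbx4* and *Tbx5* are best known for hindlimb, forelimb, lung and heart development, and together they form the Tbx2 subfamily. *Tbx1*, *Tbx15*, *Tbx18* and *Tbx20* belong to the Tbx1 subfamily. *Tbx18* is needed for the smooth muscle coat of the ureter, *Tbx15*, its closest relative, for skeleton, skin pattern and some muscle fibres, *Tbx1* for the pharyngeal arches and *Tbx20* for the heart.

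Since *Tbx18* is the targeted gene and *Tbx4* was among the genes at least 2-fold lower in the E16.5 mutant, their promoter regions (250 bases before to 50 after the start, RefSeq, GRCm38.p6) are shown, with the capitals marking CCAAT and TATAA on either strand. The window of *Tbx18* is chr9:87731211-87731510, read from the minus strand, and that of *Tbx4* is chr11:85896515-85896814, plus strand.
Tbx18: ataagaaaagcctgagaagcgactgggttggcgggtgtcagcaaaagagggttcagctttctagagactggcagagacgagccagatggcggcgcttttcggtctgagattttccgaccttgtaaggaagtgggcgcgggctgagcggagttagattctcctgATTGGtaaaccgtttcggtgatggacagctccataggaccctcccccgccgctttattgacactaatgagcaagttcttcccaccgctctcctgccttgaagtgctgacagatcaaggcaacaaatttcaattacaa
Tbx4: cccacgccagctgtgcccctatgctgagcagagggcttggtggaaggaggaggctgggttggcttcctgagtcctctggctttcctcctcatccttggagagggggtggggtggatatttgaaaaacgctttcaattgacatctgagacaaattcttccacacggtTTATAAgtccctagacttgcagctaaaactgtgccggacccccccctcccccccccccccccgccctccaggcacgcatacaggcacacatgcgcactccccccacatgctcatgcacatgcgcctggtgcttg
*Tbx18* held 1 CCAAT, on the opposite strand, with its first base 87 bases before the start, and *Tbx4* held TATAA on both strands in overlapping letters 83 and 84 bases before the start. CCAAT or its reverse complement was in 37.4% and TATAA or its reverse complement in 24.9% of 32851 RefSeq promoter windows of the same length. The T-box half-site AGGTGTGA was in 1.28% of all windows and its core GGTGTG, which it contains, in 19.0%, on either strand. Neither was in the 5 windows found for 4 of the members, *Tbx18*, *Tbx20*, *Tbx4* and *Tbx1*, the last with 2 windows.

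The values are FPKM, in which reads are divided by transcript length and by library depth, so genes of different length can be compared. Ratios that involve E18.5 wild type followed GC content (Spearman's rho 0.42 between genotypes and -0.48 between stages). In the other comparisons rho was 0.01 between genotypes at E16.5 and -0.22 between mutant stages. Levels of genes that differ in GC content are thus less comparable in E18.5 wild type. Depth was estimated from the FPKM that 1 read gave on olfactory receptor genes with a single exon, 15 to 27 of them per library, at 64.0, 55.7, 29.0 and 52.4 M mapped reads. All 8 members had at least 1 FPKM in every library, from an estimated 94.1 reads for *Tbx1* in E18.5 wild type to 12694 reads for *Tbx3* in E16.5 wild type. Intervals given below are 95% intervals that cover the counting of these reads only, not differences between embryos. Markers of UGS mesenchyme and epithelium were present throughout, with at least 36.8 FPKM for *Hoxd13* and 14.4 for *Foxa1* in every library. RNA of other cells was present too, with summed levels of 7 skeletal muscle markers between 301 and 740 FPKM and of 4 erythroid markers between 3804 and 19612 FPKM. In these bulk libraries fewer cells of a type and less RNA per cell cannot be told apart.

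*Tbx2* and *Tbx3* were the leading T-box genes of the UGS. *Tbx3* (chromosome 5, 120120678 to 120134610 in the deposited table) reached 41.6 FPKM in E16.5 wild type, 46.7 in E16.5 Tbx18Gfp/Gfp, 35.7 in E18.5 wild type and 35.1 in E18.5 Tbx18Gfp/Gfp. *Tbx2* (chromosome 11, 85646117 to 85655450) reached 38.4, 38.2, 22.3 and 35.3 FPKM in the same order, so only the E18.5 wild type library stood below the rest. Both genes together made 77.8% to 87.0% of the summed FPKM of the 8 members. The other 6 members lay between 1.39 and 5.57 FPKM.

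Among the low members the order differed between libraries. In E16.5 wild type *Tbx15* led them with 5.57 FPKM, followed by *Tbx4* with 4.83 and *Tbx18* with 3.47. *Tbx18*, *Tbx5* (3.39) and *Tbx1* (3.18) were neighbours there whose ratios did not differ from 1 beyond counting error, while *Tbx20* was lowest with 2.34. In E16.5 Tbx18Gfp/Gfp, *Tbx18*, *Tbx1*, *Tbx4* and *Tbx15*, in that order, lay between 2.50 and 2.24 FPKM, with no neighbouring pair apart beyond counting error, and *Tbx5* was lowest with 1.39. *Tbx15* led the low members in E18.5 wild type as well, with 4.31 FPKM. In E18.5 Tbx18Gfp/Gfp *Tbx4* led with 4.07 FPKM, *Tbx20* came next with 3.20, and *Tbx15* (1.87) and *Tbx1* (1.56) closed the order, a pair not apart beyond counting error.

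**Figure D1:**
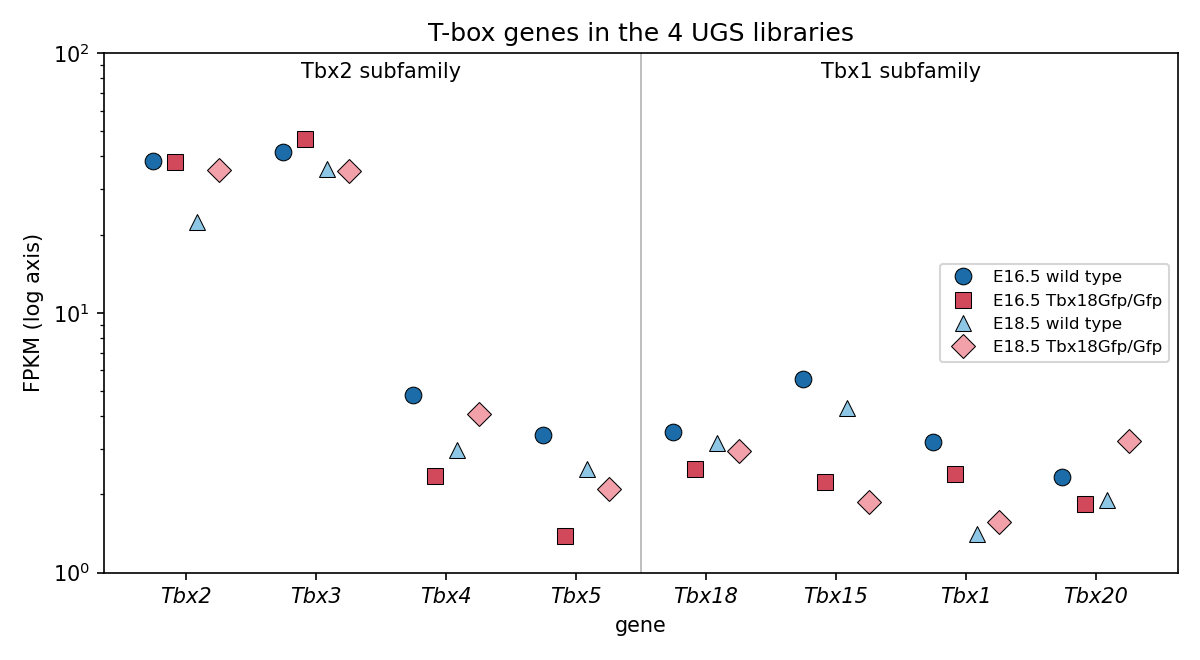
Level of each T-box gene in each of the 4 UGS libraries in FPKM on a log axis, 1 point per library, with the Tbx2 subfamily on the left and the Tbx1 subfamily on the right. *Tbx2* and *Tbx3* sit between 22.3 and 46.7 FPKM, and both *Tbx15* points of Tbx18Gfp/Gfp lie below both of wild type.

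The targeted gene was still read in the mutant libraries. *Tbx18* (chromosome 9, 87597635 to 87626095) was at 3.47 FPKM in E16.5 wild type, 2.50 in E16.5 Tbx18Gfp/Gfp, 3.16 in E18.5 wild type and 2.93 in E18.5 Tbx18Gfp/Gfp, from about 990, 623, 410 and 686 reads. Both mutant values lay below both wild type values, but the ratio of mutant to wild type was 0.722 (0.653 to 0.799) at E16.5 and 0.927 (0.819 to 1.05) at E18.5, the latter not apart from 1 beyond counting error. A whole-gene FPKM does not tell transcript of the knock-in allele from intact transcript, so these values do not check the genotype. Relative to the median gene, which was itself higher in the E18.5 mutant, the log2 ratio of -0.11 at E18.5 became -0.40. The nearest expressed genes on either side were 447 kb and 596 kb away. At E16.5 the log2 ratios of these, *4922501C03Rik* and *Nt5e*, were -0.09 and 0.12. At E18.5 they were -0.94 and 0.26.

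At E16.5 the mutant UGS had less transcript of 3 T-box genes, *Tbx15*, *Tbx5* and *Tbx4*, each at least 2-fold lower. With a pseudocount of 1 FPKM, *Tbx5* (log2 ratio -0.88) and *Tbx4* (-0.80) were under 2-fold but past 1.5-fold. Of 14761 genes that reached 1 FPKM in either library, 1.17% were lower by this fold and 1.65% were apart by it in either direction, with 0.481% higher. At 1.5-fold, 2.72% were lower and 4.15% apart in either direction. The same 3 of 8 members passed both folds, and none of the 8 was 1.5-fold higher, against 1.44% of all genes. The median log2 ratio of the 8 members was -0.44, with 7 of 8 lower, against 0.01 over 14309 genes that reached 1 FPKM in both. No test stands behind these counts.

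*Tbx15* (chromosome 3, 99057683 to 99158183) showed 5.57 FPKM in wild type and 2.24 in Tbx18Gfp/Gfp at E16.5, and was 2.49-fold lower in the mutant with a ratio of 0.402 (0.358 to 0.449). Of all genes compared, 0.481% had a lower ratio. *Tbx5* (chromosome 5, 120284672 to 120335227) showed 3.39 and 1.39 FPKM, a ratio of 0.409 (0.356 to 0.468). *Tbx4* (chromosome 11, 85703565 to 85729599) showed 4.83 and 2.36 FPKM, a ratio of 0.489 (0.433 to 0.551). These 3 genes are of both subfamilies and lie on different chromosomes.

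The other members were closer together between the E16.5 genotypes. *Tbx18*, *Tbx1* and *Tbx20* were lower by less than 1.5-fold, with log2 ratios of -0.47, -0.41 and -0.35, and their counting intervals lay below 0. *Tbx1* (chromosome 16, 18581806 to 18587062) showed 3.18 FPKM in wild type and 2.40 in Tbx18Gfp/Gfp, and *Tbx20* (chromosome 9, 24527648 to 24578746) 2.34 and 1.84. *Tbx2* was alike in both libraries, with a log2 ratio of -0.01 (-0.05 to 0.04). *Tbx3* was slightly higher in the mutant, with 0.16 (0.13 to 0.20).

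**Figure D2:**
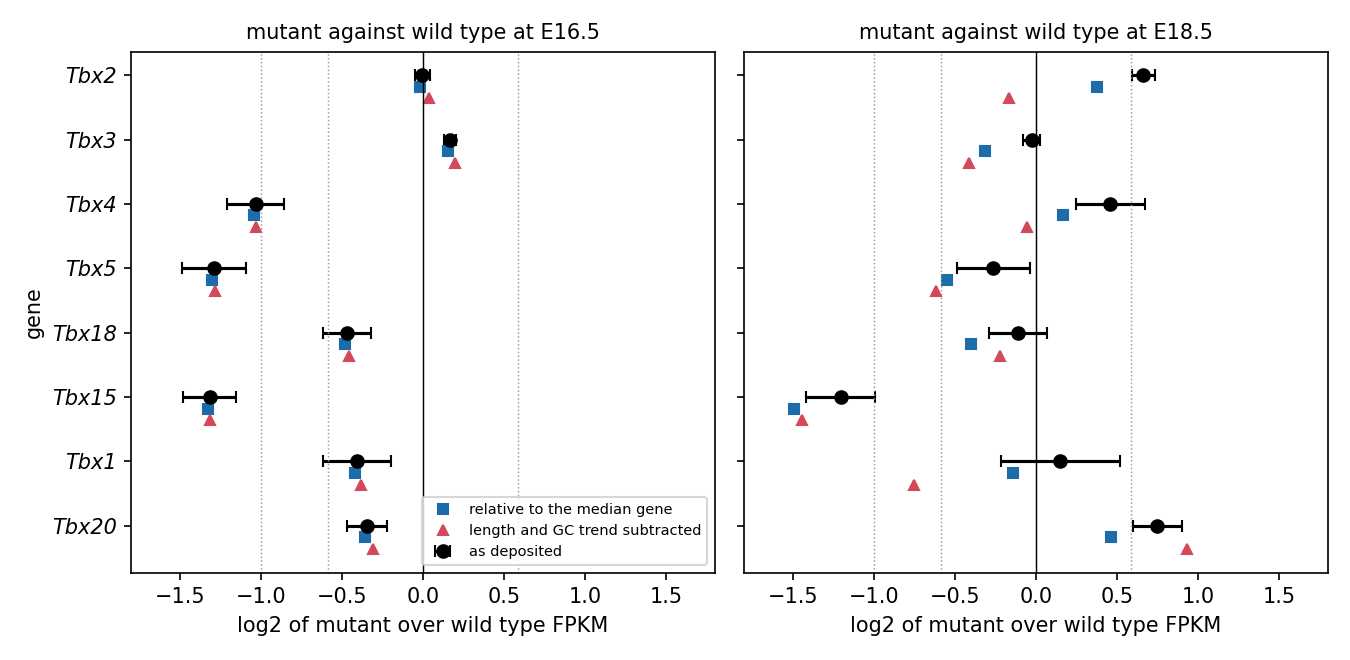
Log2 of Tbx18Gfp/Gfp over wild type FPKM for each T-box gene at E16.5 (left) and E18.5 (right), as deposited with 95% counting intervals (black), relative to the median gene (blue) and with a trend on GC content and transcript length removed (red). The dotted lines mark 1.5-fold and, on the lower side, 2-fold, and *Tbx15* is the only member past the 2-fold line at both stages.

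Since *Tbx2* and *Tbx4*, and likewise *Tbx3* and *Tbx5*, are neighbours in the genome, each pair could be compared within a library. *Tbx4* starts 48.1 kb after the end of *Tbx2* on chromosome 11, and *Tbx5* 150.1 kb after the end of *Tbx3* on chromosome 5. In E16.5 wild type *Tbx2* had 7.94 times the level of *Tbx4*, and in E16.5 Tbx18Gfp/Gfp 16.2 times. *Tbx3* had 12.3 times the level of *Tbx5* in E16.5 wild type and 33.6 times in E16.5 Tbx18Gfp/Gfp. In both pairs the weakly expressed partner was lower in the mutant and the strongly expressed partner was not. At E18.5 the corresponding values were 7.53 and 8.67 for *Tbx2* over *Tbx4*, and 14.2 and 16.7 for *Tbx3* over *Tbx5*, so the genotypes were closer together.

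The genes flanking the 3 lower members at E16.5 kept nearly the same level in both genotypes. *Wars2*, 33.6 kb before *Tbx15*, had 3.10 FPKM in wild type and 3.04 in Tbx18Gfp/Gfp. *Brip1*, after *Tbx4*, had 2.59 and 2.84 FPKM, and *Rbm19*, after *Tbx5*, had 5.62 and 5.65. *2610027K06Rik*, which ends 0.227 kb before *Tbx2*, had 3.24 and 3.22 FPKM. No other row of the table overlapped a member.

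Skeletal and smooth muscle markers were lower in the same E16.5 mutant library. All 7 skeletal muscle markers, including *Myod1* and *Myog*, were at least 2-fold lower, with log2 ratios from -1.56 to -1.11, against -1.32, -1.29 and -1.03 for *Tbx15*, *Tbx5* and *Tbx4*. Their summed level was 725 FPKM in wild type and 301 in Tbx18Gfp/Gfp. All 6 smooth muscle markers were at least 1.5-fold lower, with log2 ratios from -1.95 to -0.65, a range that holds the same 3 T-box genes. Summed, these 6 markers had 1128 FPKM in wild type and 588 in Tbx18Gfp/Gfp. The 6 mesenchyme markers had log2 ratios between -0.04 and 0.14, and none of the 7 epithelial markers passed 1.5-fold. The 3 markers of nephric and genital ducts, *Pax2*, *Pax8* and *Emx2*, and 3 of 4 erythroid markers were at least 1.5-fold higher. The part of these cell types in the T-box values was not tested.

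At E18.5 *Tbx15* was the only member at least 2-fold lower in the mutant. The E18.5 ratios need a reference, because the median log2 ratio over 13757 genes was 0.29 and the ratio was higher for transcripts with more GC (Spearman's rho 0.42 across 13031 genes that share both libraries, a description). Of 14733 genes that reached 1 FPKM in either library, 33.2% were 1.5-fold or more higher in Tbx18Gfp/Gfp, 7.6% lower, and 40.8% apart in either direction. At 2-fold, the shares were 15.1%, 2.89% and 18%. Of the 8 members, 2 were at least 1.5-fold higher, *Tbx2* and *Tbx20*, and 1 was lower. The 2 higher members are a smaller share than among all genes, and relative to the median gene *Tbx15* was the only member past 1.5-fold.

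*Tbx15* had 4.31 FPKM in wild type and 1.87 in Tbx18Gfp/Gfp at E18.5, a ratio of 0.434 (0.374 to 0.503), or 2.30-fold lower. Relative to the median gene its log2 ratio of -1.20 became -1.49, and -1.44 with a trend on GC content and transcript length subtracted. Of all genes compared, 2.04% had a lower ratio. The skeletal muscle markers, all lower at E16.5, had no common direction at this stage, either as deposited or relative to the median gene. As deposited, their log2 ratios ran from -0.80 for *Myh3* to 2.04 for *Acta1*, with a median of 0.12. *Myod1* had 3.34 FPKM in wild type and 3.63 in Tbx18Gfp/Gfp, and *Myog* had 17.5 and 12.8. *Myh3* (-1.09), *Myog* (-0.74) and *Tnnt3* (-0.602) were past 1.5-fold lower relative to the median gene, and *Myod1* stood at -0.17. *Acta1* and *Ckm* were past 1.5-fold higher in that setting, and *Mylpf* was higher by less. All 6 smooth muscle markers were at least 1.5-fold higher in the mutant (5 of 6 relative to the median gene, without *Myh11* at 0.54), with summed levels of 1303 and 3599 FPKM, and 4 erythroid markers summed to 3804 and 17303 FPKM. The part of these cell types was not tested.

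*Tbx20* had 1.90 FPKM in wild type and 3.20 in Tbx18Gfp/Gfp at E18.5, a ratio of 1.68 (1.52 to 1.87). It was above 1 under each scaling, with a log2 ratio of 0.75 as deposited, 0.46 relative to the median gene and 0.94 with the trend subtracted. *Tbx2* had 22.3 and 35.3 FPKM, a ratio of 1.58 (1.51 to 1.66) and a log2 ratio of 0.66. Its transcript is 63.2% GC, the highest of the members beside 62.8% for *Tbx1*, and with the trend subtracted its log2 ratio was -0.17. The other 6 members are between 42.3% and 54.2% GC. Thus the direction for *Tbx2* at E18.5 depended on that correction.

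*Tbx4* and *Tbx5*, both at least 2-fold lower in the mutant at E16.5, were not at E18.5. *Tbx4* had 2.97 FPKM in wild type and 4.07 in Tbx18Gfp/Gfp, a log2 ratio of 0.46 that was 0.17 relative to the median gene and -0.05 with the trend subtracted. *Tbx5* had 2.51 and 2.09 FPKM, a log2 ratio of -0.26 that was -0.55 and -0.62 in these settings. *Tbx3* had 35.7 and 35.1 FPKM, a log2 ratio of -0.03 that was -0.32 relative to the median gene and -0.41 with the trend subtracted. *Tbx1* had 1.41 and 1.56 FPKM, a log2 ratio of 0.15 whose counting interval (-0.22 to 0.52) included 0. It was -0.14 relative to the median gene and -0.75, past 1.5-fold lower, with the trend subtracted.

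**Figure D3:**
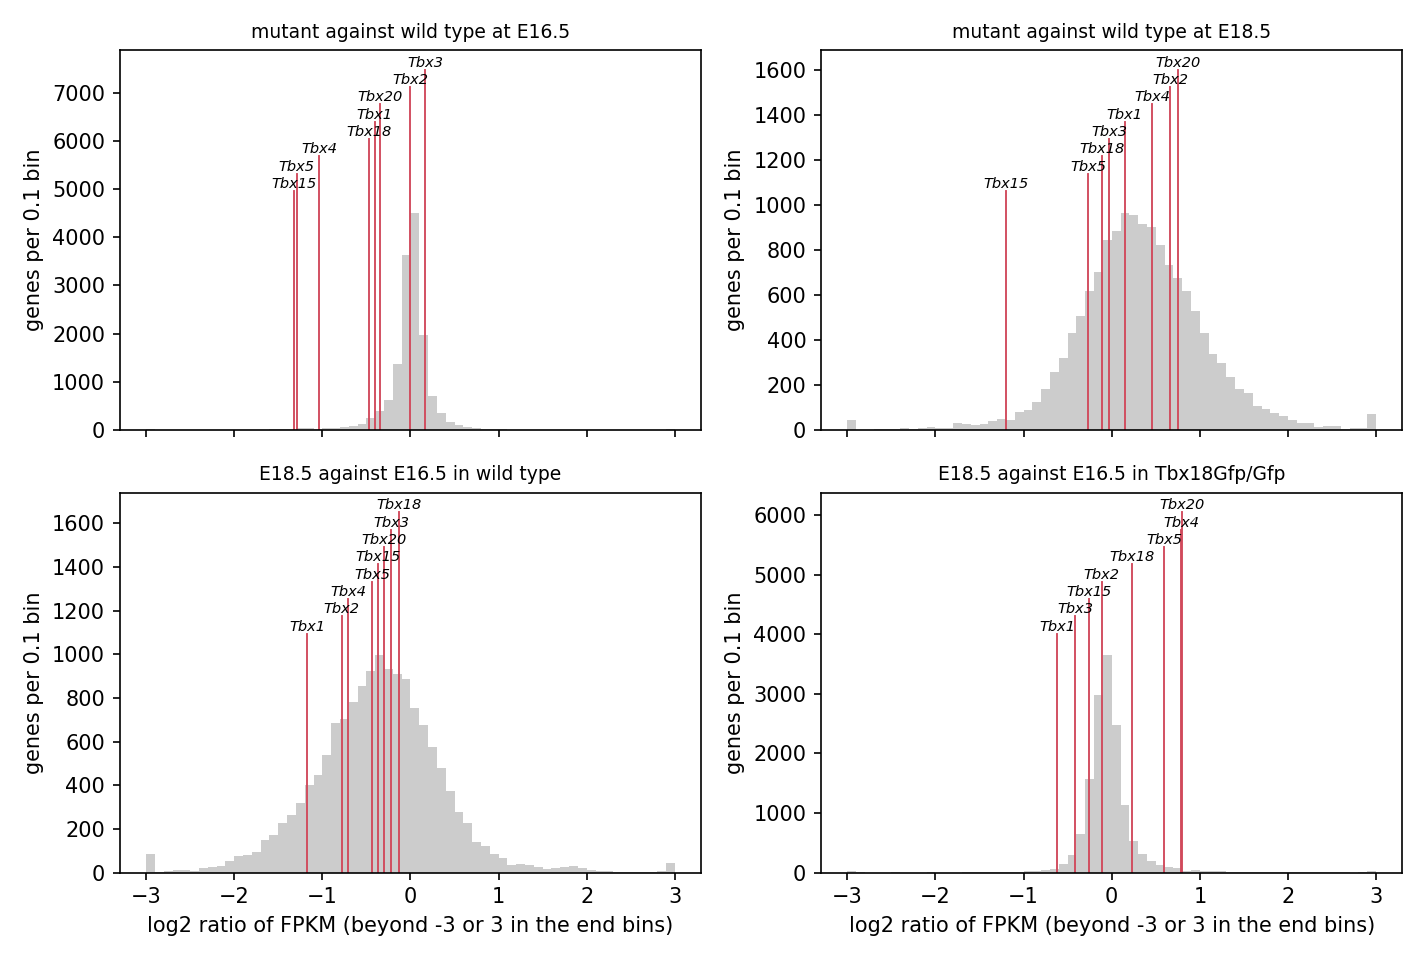
Number of genes per bin of 0.1 in the log2 ratio of FPKM (grey) in each of the 4 comparisons, over genes that reached 1 FPKM in either library, with a red line at each T-box gene whose height has no meaning. At E16.5 *Tbx15*, *Tbx5* and *Tbx4* lie far left of the bulk, whereas the comparisons with E18.5 wild type are broad and most members lie inside them.

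Between stages, the mutant libraries were the closer pair, and 4 members were at least 1.5-fold apart as deposited. Of 14713 genes, 3% were 1.5-fold or more higher at E18.5 than at E16.5 in Tbx18Gfp/Gfp, 1.68% lower and 4.68% apart in either direction. At 2-fold the shares were 1.35%, 0.571% and 1.92%, and no member was that far apart. Of the 8 members 3 were higher, *Tbx20*, *Tbx4* and *Tbx5*, and 1 was lower, *Tbx1*. *Tbx20* went from 1.84 to 3.20 FPKM, a ratio of 1.74 (1.60 to 1.89), and *Tbx4* from 2.36 to 4.07 FPKM, a ratio of 1.73 (1.52 to 1.96). *Tbx5* went from 1.39 to 2.09 FPKM, a ratio of 1.51 (1.29 to 1.76). *Tbx1* went from 2.40 to 1.56 FPKM, a ratio of 0.651 (0.540 to 0.783). *Tbx15* was 2.24 and 1.87 FPKM, a difference of less than 1.5-fold. Relative to the median gene *Tbx1* was under 1.5-fold (-0.56), as was *Tbx5* with library sums made equal (0.57). With a pseudocount of 1 FPKM only *Tbx4* (0.594) stayed past 1.5-fold, and *Tbx20* stood at 0.562. In the same pair of libraries all 6 smooth muscle markers were at least 2-fold higher at E18.5, with summed levels of 588 and 3599 FPKM. All 3 urothelium markers and 3 of 7 skeletal muscle markers were at least 1.5-fold higher. Over the 7 skeletal muscle markers the median log2 ratio was 0.02, and 3 were lower by less than 1.5-fold. The part of these cell types in the T-box shifts between stages was not tested.

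In wild type all 8 members were lower at E18.5 than at E16.5 as deposited, but so were most genes, and relative to the median gene *Tbx18* (0.20), *Tbx3* (0.11) and *Tbx20* (0.03) were not. The median log2 ratio over all genes was -0.33, and 35.9% of 14807 genes were 1.5-fold or more lower against 6.8% higher, 42.7% in all. Of the members *Tbx1*, *Tbx2* and *Tbx4* were at least 1.5-fold lower, with log2 ratios of -1.17, -0.78 and -0.70, and none was higher. *Tbx1*, from 3.18 to 1.41 FPKM, was the only member 2-fold lower, as were 16.8% of all genes, against 2.7% higher and 19.5% in either direction. Its log2 ratio was -0.84 relative to the median gene and -0.15 with the length and GC trend subtracted. *Tbx18* was 3.47 and 3.16 FPKM in the wild type libraries, a ratio of 0.912 (0.811 to 1.02) that was not apart from 1 beyond counting error. The E18.5 wild type library is the shallowest of the 4 and enters both comparisons with broad backgrounds. Set against E16.5 wild type, from which it differs in both stage and genotype, the E18.5 Tbx18Gfp/Gfp library had log2 ratios of -1.57 for *Tbx15*, -1.03 for *Tbx1* and -0.70 for *Tbx5*. Over 14766 genes of that pair, 3.41% were at least 1.5-fold lower and 3.06% higher. The other 5 members were less than 1.5-fold apart.

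Apart from *Mga*, the rest of the T-box family was barely read in the UGS. Of 9 other T-box genes in the table, only *Mga*, which encodes a very large protein that also binds MAX, had at least 1 FPKM, with 11.5, 11.6, 13.3 and 11.6 FPKM. *T*, the mesoderm factor Brachyury, had 0.273, 0.186, 0.113 and 0.156 FPKM. *Tbx6*, *Tbr1*, *Tbx21*, *Tbx22*, *Eomes* and *Tbx19* had at most 0.470 FPKM in any library, and *Tbx10* was listed at 0 in all 4.

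Transcripts of the Groucho family were less than 1.5-fold apart between genotypes at E16.5. *Tle1* to *Tle4* encode Groucho co-repressors, which the Tbx18 protein can recruit, and *Aes* encodes a related protein. None of these 5 genes was 1.5-fold apart at E16.5, against 4.15% of all genes, with log2 ratios from -0.16 to 0.16. At E18.5 *Aes* was 1.5-fold higher (0.74, or 0.45 relative to the median gene), as were 33.2% of all genes as deposited. Among partner proteins, *Pdlim7*, whose product binds Tbx4 and Tbx5 proteins, had 31.1 and 60.3 FPKM at E18.5. The partners *Pax3*, *Nkx2-5*, *Gata4* and *Sall4* had at most 0.376 FPKM in any library.

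Of 16 genes described as T-box targets in other tissues, 13 passed the filter at E16.5. *Frzb*, a secreted Wnt antagonist, had 2.14 FPKM in wild type and 1.27 in Tbx18Gfp/Gfp at E16.5. *Shisa2*, an inhibitor of Wnt and FGF receptors, had 3.97 and 2.53 FPKM. These 2 were the only ones at least 1.5-fold lower, and none was higher, against 2.72% lower and 1.44% higher among all genes. The median log2 ratio over the 13 was -0.09. At E18.5, 4 were at least 1.5-fold higher, *Gja5*, *Dll1*, *Frzb* and *Shisa2*, and *Cdh1*, the epithelial cadherin, was lower with 36.8 and 23.3 FPKM. The share of 4 in 13 is near the 33.2% among all genes. Relative to the median gene *Gja5* (0.93) and *Dll1* (0.70) were past 1.5-fold higher, and *Cdh1* (-0.95), *Dkk2* (-0.78) and *Cdkn1a* (-0.71) lower. The share of all genes past this fold was not counted in that setting. *Fgf10*, *Wnt5a*, *Bmp4*, *Gja1* and *Ndrg1* were less than 1.5-fold apart at both stages.

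Among 8 regulators of urogenital and epicardial mesenchyme, of which 7 were in the table, none was 1.5-fold apart at E16.5. Of all genes, 4.15% were that far apart at this stage. *Wt1*, a factor of the epicardium and genital ridge, had 15.2 FPKM in wild type and 20.5 in Tbx18Gfp/Gfp, and *Tcf21* had 136 and 164. At E18.5 *Sox9* was the only one past 1.5-fold as deposited, with 16.7 and 8.26 FPKM. As deposited, 7.6% of all genes were that far lower and 40.8% apart in either direction. Relative to the median gene *Eya1* (-0.83) and *Wt1* (-0.77) were past it too, where no share over all genes was counted. *Tshz3*, which acts in ureter smooth muscle, stayed between 7.89 and 8.75 FPKM in the 4 libraries.

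**Figure D4:**
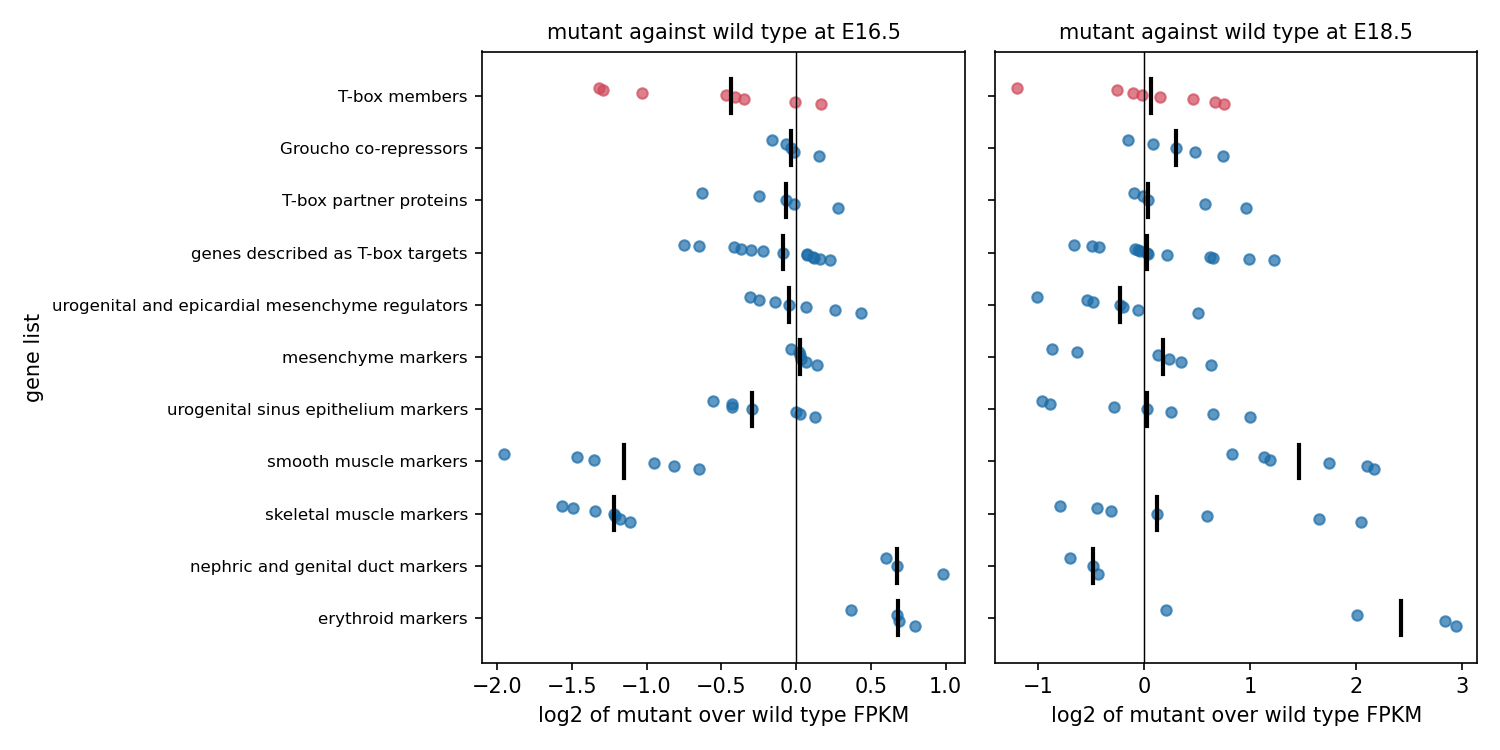
Log2 of Tbx18Gfp/Gfp over wild type FPKM for the T-box members (red) and for genes of other lists (blue) at E16.5 (left) and E18.5 (right), 1 point per gene that reached 1 FPKM in either library and a black bar at each list's median. At E16.5 the 3 lowest T-box genes lie in the range of the 7 skeletal muscle markers or just above it. They also lie in the wider range of the smooth muscle markers. At E18.5 the skeletal muscle markers are spread on both sides of 0.

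The genes nearest to each member over the 4 libraries, by the Euclidean distance of log2(FPKM + 0.1) centred on each gene's mean among 15022 genes, differed between the members. With 4 libraries this is a description. The profiles of *Tbx15*, *Tbx4* and *Tbx5* were uncommon, with 3, 2 and 2 genes within a distance of 0.2. The nearest to *Tbx15* were *LOC100504518*, *Ttn* (titin of striated muscle) and *Arpp21*, at 0.117 to 0.168. Those nearest to *Tbx5* were *Tnni2*, *Atp1b4* and *Tnnt3*, of which *Tnni2* and *Tnnt3* encode troponins of fast skeletal muscle, at 0.161 to 0.216. Those nearest to *Tbx4* were *Olfr560*, *Casq2* (calsequestrin of striated muscle) and *Gsdmc*, at 0.164 to 0.206. In contrast 1932 genes lay within 0.2 of *Tbx2* and 513 within 0.2 of *Tbx3*, whose nearest genes were *Supt3h*, *Fgfr2* and *Cybb*. *Eif4a3*, *Fam63a* and *Gm9531* were nearest to *Tbx2*. *Tbx18* had 122 such genes, led by *Fstl5*, *Chrna5* and *Pcdhga12*. *Tbx1* had 13, led by *Atp2c2*, *Tgm1* and *Lypd2*, and *Tbx20* had 18, led by *Stx11*, *Lrrc8e* and *Hopx*.

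*Tbx15* is also the only member in the list of RT-qPCR primers that the study used on single embryos of these pools. Its primers are shown because they mark the stretch of *Tbx15* that this assay, a second method on the same embryos, read.
tbx15_f: ctccgttgaagccttgatcgg
tbx15_r: agacgccaggtcagtgtga
Both matched the transcript Tbx15-201 of GENCODE M21 exactly, at bases 175 to 412, a product of 238 bases. The reverse primer alone also matched shorter *Tbx15* transcripts. No GENCODE M21 transcript of another gene held either primer, and no value of that assay was used here.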

How the data were processed

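RNA-Seq libraries were made with a stranded mRNA kit from UGS RNA pooled from 3 male embryos each and sequenced single-end. Per the labels and the study's methods, the authors used CASAVA 1.8.2, Trimmomatic 0.30, TopHat2 2.1.0 at default options and Cufflinks 2.2.1, and deposited FPKM for 25819 rows, 1 column per library. The genome build and annotation are not given in the sources used here, so positions are as deposited, in 1-based form. Default alignment options do not use strand, and options of the expression estimate are not given.

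Ratios were taken between deposited FPKM as they stand, for genes that reached 1 FPKM in either library, and counted at 1.5-fold and 2-fold in each comparison. Shares over all genes were counted for ratios as deposited only, so counts in other settings have no such share beside them. The study used 1.5-fold at E16.5 alone. With 1 library per group no test was made. Depth was estimated from single-exon olfactory receptor genes, and relative depths from these (0.871, 0.454 and 0.820 of E16.5 wild type) matched the commonest ratios of low values (0.871, 0.454 and 0.820). Read numbers used these depths and the longest GENCODE M21 transcript less 214 bases, and intervals are exact binomial intervals of 95%. Length and GC content were found by symbol for 93.8% of the 15023 genes that reached 1 FPKM in any library. Alternatives were equal library sums, centring on the median gene, upper quartile scaling (75th percentile), a lowess trend (span 0.3) on length and GC content subtracted, pseudocounts of 0.1 and 1, other FPKM filters and 2-fold. The steps were tested on simulated data. Genes named are the 8 members, other T-box genes, the flanking expressed genes, the 3 nearest profiles per member, and at most 4 genes per list past 1.5-fold. Other genes of the lists were named after their values were seen. Some genes of the lists are not reported here. The members and lists were chosen with earlier results of these data known. The tools were Python 3.11.15, scipy 1.17.1, pandas 2.3.3, numpy 2.4.6, matplotlib 3.10.9 and statsmodels 0.14.6.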

Additional observations from a re-analysis of the deposited data

Results flagged for a closer look

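*Tbx4* and *Tbx20* had opposite directions between genotypes at the 2 stages, with counting intervals on opposite sides of 0. The log2 ratio of Tbx18Gfp/Gfp over wild type for *Tbx4* was -1.03 at the earlier and 0.46 at the later stage, a difference of 1.49. For *Tbx20* it was -0.35 and 0.75, a difference of 1.09. Seen between stages, E18.5 over E16.5 went in opposite directions in the 2 genotypes for *Tbx4* (-0.70 in wild type and 0.79 in Tbx18Gfp/Gfp, again 1.49 apart), *Tbx20* (-0.30 and 0.80, 1.09 apart) and *Tbx5* (-0.43 and 0.59, 1.03 apart). Both readings rest on the same 4 libraries, E18.5 wild type among them, and the difference itself was not tested. Between wild type stages, relative to the median gene, *Tbx20* stood at 0.03, *Tbx5* at -0.10 and *Tbx4* at -0.37. With the length and GC trend subtracted, *Tbx20* stood at -0.43, *Tbx5* at -0.03 and *Tbx4* at -0.14 there. With the same trend subtracted, *Tbx4* stood at -0.05 between genotypes at E18.5.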

How the results depend on the processing

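No paired analysis was possible because each genotype and stage has 1 library and the labels give no replicate numbers. With 1 library per group no library could be left out. At E16.5 the 3 members at least 1.5-fold apart were 3 under each scaling, the trend correction and both pseudocounts, and 1 with at least 5 FPKM in either library, where 3 members were left. At E18.5 the 3 members (2 higher, 1 lower) were 2 with equal library sums (0 higher, 2 lower), 4 with the trend subtracted (1 higher, 3 lower), 2 with a pseudocount of 1 (1 higher, 1 lower), 1 relative to the median gene, 1 with upper quartile scaling, 1 at 5 FPKM and 1 at 2-fold. With E16.5 wild type in place of E18.5 wild type, an alternative chosen after the data were seen, 3 were apart, all lower in the mutant, against 3.41% of all genes lower and 3.06% higher. Between wild type stages the 3 members were 1 with equal sums, 1 relative to the median, 1 with upper quartile scaling, 0 with the trend subtracted, 1 at 5 FPKM and 1 at 2-fold. Between mutant stages the 4 members were 3 with equal sums and a pseudocount of 0.1 (without *Tbx5*), 3 relative to the median and with the trend subtracted (without *Tbx1*), 1 with a pseudocount of 1, 0 at 5 FPKM and 0 at 2-fold. With a pseudocount of 1, *Tbx15* at E18.5 (log2 ratio -0.89) and *Tbx5* (-0.88) and *Tbx4* (-0.80) at E16.5 were under 2-fold. *Tbx2* reversed with the trend subtracted, to -0.17 at E18.5 and to 0.21 between wild type stages, on the log2 scale. Of 48 values per comparison (8 members, 6 alternatives), 43 at E16.5 and 42 between mutant stages stayed within the counting interval, against 17 at E18.5 and 18 between wild type stages. Fewer members pass at 5 FPKM because fewer were compared, and otherwise the cause was not tested.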
